A study of Bos taurus with 45 samples.

Results

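The genes described here are ENSBTAG00000014626, ENSBTAG00000002579 and ENSBTAG00000000808, 3 of the 24616 genes in a table of read counts from single bovine demi-blastocysts. They were picked because they reached 5 or more counts, called detected here, in most embryos whose pregnancy was maintained and in 0 or 1 of the embryos whose pregnancy was lost. That difference chose the genes, so it is described below without a test and supports nothing. The files give the genes by Ensembl identifier only, and 0 of the 24616 identifiers matched the supplied table of bovine gene symbols, so their products and functions are not given, and no sequence is shown.

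Each of 45 day 7 blastocysts was cut into 2 parts, and 1 part was transferred to a recipient cow while RNA of the other part was sequenced. Per the labels, when the cut was uneven the smaller or less intact part was sequenced, so each library comes from the sister of the part whose fate names its group. All embryos came from in vitro fertilization with X-sorted sperm and were cultured between day 5 and day 7 in serum-free medium with recombinant bovine CSF2 at 10 ng/ml or with vehicle. In the maintained group the recipient was pregnant at day 30 and day 60 (5 CSF2 and 5 vehicle embryos). In the lost group the recipient was pregnant at day 30 but no longer at day 60 (1 CSF2 and 5 vehicle embryos). In the not established group no pregnancy was found at day 30 (14 CSF2 and 15 vehicle embryos).

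A blastocyst holds an outer trophectoderm, which goes on to form most of the embryonic part of the placenta, and an inner cell mass, from which the fetus arises. In cattle the embryo elongates and attaches after hatching, and many pregnancies end before or during early placental development. CSF2, colony stimulating factor 2, is a cytokine made by the reproductive tract, and the submitters describe it as able to raise the competence of a blastocyst to survive transfer. Per the labels both cell lineages were present in each demi-embryo, which could not be checked against lineage markers because the genes carry no symbols. In a whole demi-embryo, fewer cells that express a gene and less RNA of it per cell cannot be told apart.

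The 40 deeper libraries held between 3906252 and 10326829 counts and between 1095 and 6137 detected genes. The other 5, which are maintained replicate 8, lost replicate 5 and not established replicates 8, 27 and 29, held between 137808 and 853817 counts and between 50 and 502 detected genes. All 3 genes stood at 0 in each of these 5 libraries. Levels are given in CPM, counts per 1000000 counts of the library. In maintained replicate 8, 3 counts would be 21.8 CPM, so a 0 there leaves room for levels that other maintained embryos showed. In the 5 deeper lost libraries 3 counts are between 0.419 and 0.695 CPM, and in lost replicate 5 they are 4.36 CPM.

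ENSBTAG00000014626 was read in 8 of 10 maintained embryos, in 0 of 6 lost embryos and in 16 of 29 not established embryos. In the CSF2 embryos of the maintained group its level was 62.6 CPM in replicate 1, 291.5 in replicate 2, 74.5 in replicate 3, 99.3 in replicate 9 and 0 in replicate 10. In the vehicle embryos of that group it was 4.98 CPM in replicate 4, 94.7 in replicate 5, 49.8 in replicate 6, 277.5 in replicate 7 and 0 in replicate 8. Replicates 2 and 7, 1 of each culture, were the highest of the group, and a 0 occurred once in each culture. None of the 6 lost libraries held a single count among their 31031175 counts, where 3 counts over the group would be 0.0967 CPM. The values overlapped between the groups, since 2 maintained embryos were also at 0. The 0 of maintained replicate 10 was in a library of 6427278 counts, where 3 counts are 0.467 CPM.

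In the not established embryos, which the choice of genes did not use, ENSBTAG00000014626 ran from 0 CPM through a median of 2.1 to 393.5 CPM in replicate 20. The group had 11 libraries with no count, 2 with 1 to 4 counts and 16 with 10 counts or more. The highest not established value was above every maintained value. The maintained embryos averaged 95.5 ± 106 CPM (SD, n = 10), the not established embryos averaged 58.3 ± 105 CPM (SD, n = 29), and each SD was as large as or larger than its mean. In order of level the maintained embryos came first, the not established second and the lost last, and the first 2 groups differed by less than the spread within either.

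ENSBTAG00000002579 was read in 9 of 10 maintained embryos, in 1 of 6 lost embryos and in 16 of 29 not established embryos. Maintained replicate 8, the library of 137808 counts, was the only maintained embryo without it, so it was present in all 9 deeper maintained libraries. In the CSF2 embryos of the maintained group its level was 132.8 CPM in replicate 1, 46.2 in replicate 2, 38.8 in replicate 3, 8.65 in replicate 9 and 80.4 in replicate 10. In the vehicle embryos it was 79.3 CPM in replicate 4, 2.85 in replicate 5, 19.7 in replicate 6, 118.1 in replicate 7 and 0 in replicate 8. Both cultures thus spanned a wide range, and neither lay apart from the other.

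Lost replicate 3 held 431 counts of ENSBTAG00000002579, or 68.4 CPM, and the other 5 lost libraries held 0. That value was above the maintained median of 42.5 CPM, and the lost and maintained values overlapped. Without lost replicate 3 the gene was detected in 0% of the lost libraries, against 16.7% with it. Not established embryos ran from 0 CPM through a median of 1.57 to 939.1 CPM in replicate 7, which held 38.0% of the group's summed CPM. The order of the groups depended on the summary. By the mean the not established embryos came first, with 85.3 ± 204 CPM (SD, n = 29), before maintained embryos with 52.7 ± 48.0 CPM (SD, n = 10) and lost embryos with 11.4 ± 27.9 CPM (SD, n = 6). By the median the maintained embryos came first. Each pair of group means differed by less than the larger of its 2 SDs.

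ENSBTAG00000000808 was read in 7 of 10 maintained embryos, in 0 of 6 lost embryos and in 3 of 29 not established embryos. In the CSF2 embryos of the maintained group its level was 324.9 CPM in replicate 1, 0 in replicate 2, 72.3 in replicate 3, 2.08 in replicate 9 and 369.8 in replicate 10. In the vehicle embryos it was 71.6 CPM in replicate 4, 0.907 in replicate 5, 0 in replicate 6, 45.1 in replicate 7 and 0 in replicate 8. The levels fell far apart within the group, and the value of replicate 5 rests on 7 counts. Maintained replicate 10, which had no count of ENSBTAG00000014626, had the highest level of ENSBTAG00000000808 of all 45 embryos and held 41.7% of its summed CPM in the maintained group.

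Among the not established embryos ENSBTAG00000000808 reached 71.3 CPM in replicate 12, 72.6 CPM in replicate 17 and 3.94 CPM in replicate 21. In the other 26 libraries of that group it had 0 counts in 23 and 1 or 2 counts in 3. The lost libraries held no count of it among 31031175 counts. Maintained embryos averaged 88.7 ± 140 CPM (SD, n = 10) of it and not established ones 5.12 ± 18.5 CPM (SD, n = 29), a difference smaller than the SD of the maintained group. It was read in 10.3% of not established libraries (exact 95% interval 2.19 to 27.4%) and in 0 of 6 lost libraries (up to 45.9%). Each of the other two genes was read in 55.2% of not established libraries (35.7 to 73.6%). All intervals here are Clopper-Pearson intervals and cover counting error only. The interval of the lost group does not allow for the choice of genes, which limited the lost detections to 0 or 1.

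**Figure D1:**
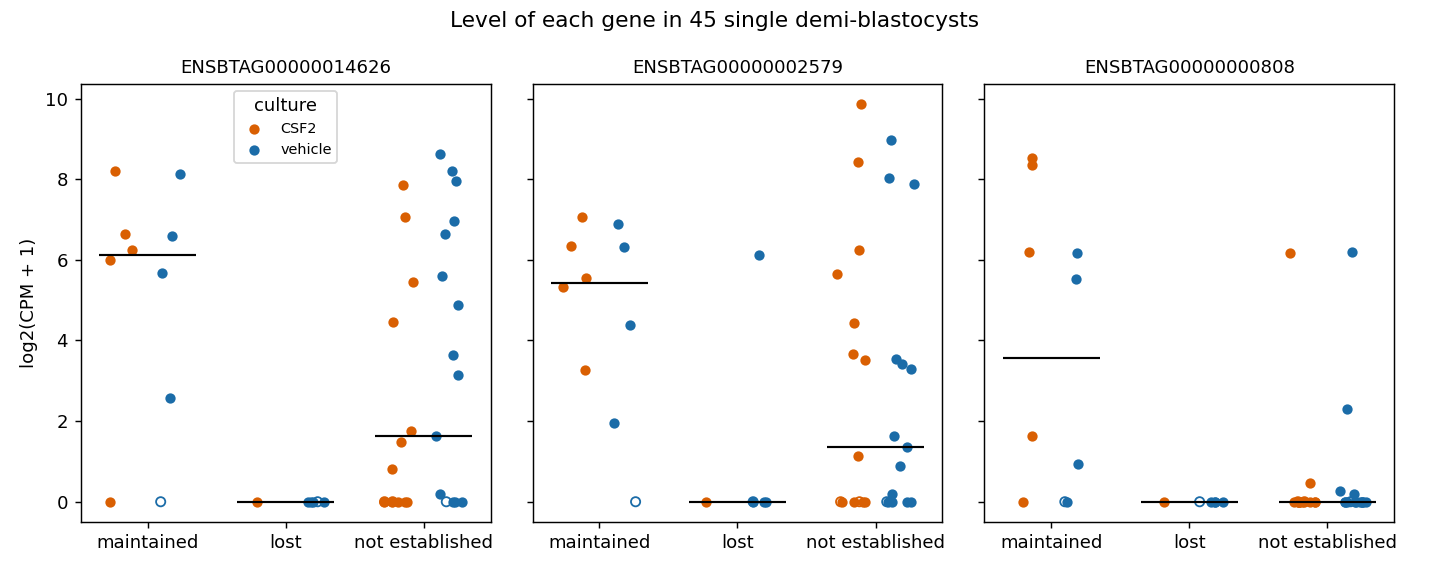
Level of each gene as log2(CPM + 1) (vertical axis) in 45 libraries by pregnancy outcome, with 1 point per embryo, orange for CSF2 and blue for vehicle, open circles for the 5 libraries under 1000000 counts, and a line at the group median of all libraries. Apart from lost replicate 3 in the middle panel all lost embryos lie at 0. Maintained and not established embryos are both widely spread in the first 2 panels, while in the third most not established embryos lie at 0 and the highest reaches 72.6 CPM against 369.8 CPM among the maintained.

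When a gene was read at all, it was mostly well above the minimum of 5 counts. Detected libraries held between 10 and 2785 counts of ENSBTAG00000014626, between 10 and 4791 of ENSBTAG00000002579 and between 7 and 2377 of ENSBTAG00000000808. Counts from 1 to 4 occurred in 2, 2 and 3 of the 45 libraries, in the same order. The lowest detected maintained levels, 4.98, 2.85 and 0.907 CPM, were above the 0.695 CPM that 3 counts make in the shallowest of the deeper lost libraries. As detection needs 5 counts, a detected level in a library of like depth always exceeds that of 3 counts. The comparison leaves out deeper maintained libraries that also stood at 0. These were replicate 10 for ENSBTAG00000014626 and replicates 2 and 6 for ENSBTAG00000000808.

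The selection stood against many genes. Of 12306 genes detected in any library, 227 were detected in 6 or more maintained and at most 1 lost libraries, which is 1.84% of them. Among the 2346 genes detected in 6 or more maintained libraries these are 9.68%. Just inside the limits, 162 genes had exactly 6 maintained and at most 1 lost libraries, and just outside 303 had exactly 5 maintained and at most 1 lost, and 371 had 6 or more maintained and 2 lost. The 3 genes lie deeper inside. ENSBTAG00000014626 was the 1 gene with 8 or more maintained and 0 lost libraries, ENSBTAG00000002579 the 1 gene with 9 or more maintained and at most 1 lost, and ENSBTAG00000000808 was 1 of 12 genes with 7 or more maintained and 0 lost. As these are the values that chose the genes, nothing further is read from them.

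In the not established libraries the median gene of the 227 was detected in 12 of 29. ENSBTAG00000014626 and ENSBTAG00000002579, each with 16, were above that median, and 184 of the 227 were read in fewer not established libraries than either. They were not apart from the genes most like them in the choice. The 17 genes with 8 or more maintained and at most 1 lost libraries had a median of 15 and ran from 10 to 19. ENSBTAG00000000808, with 3, was near the bottom, and 2 of the 227 were read in fewer. The 12 genes with 7 or more maintained and 0 lost libraries had a median of 10 and ran from 3 to 17. ENSBTAG00000000808 was the lowest of them, and ENSBTAG00000007847 followed closely with 4. Genes chosen by the same 2 groups thus differed widely in the third group.

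Culture was unevenly spread over the outcomes, with 5 of the 6 lost embryos in vehicle, so detection was also read within a culture. Among vehicle embryos in deeper libraries, ENSBTAG00000014626 was detected in 4 of 4 maintained and 0 of 4 lost, ENSBTAG00000002579 in 4 of 4 and 1 of 4, and ENSBTAG00000000808 in 3 of 4 and 0 of 4. The single CSF2 embryo of the lost group, in a library of 6178362 counts, held no count of any of them, against 4, 5 and 4 of 5 CSF2 maintained embryos. These are the detections that chose the genes, so the counts are given as a description, and the parts of culture and outcome in them were not tested.

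**Figure D2:**
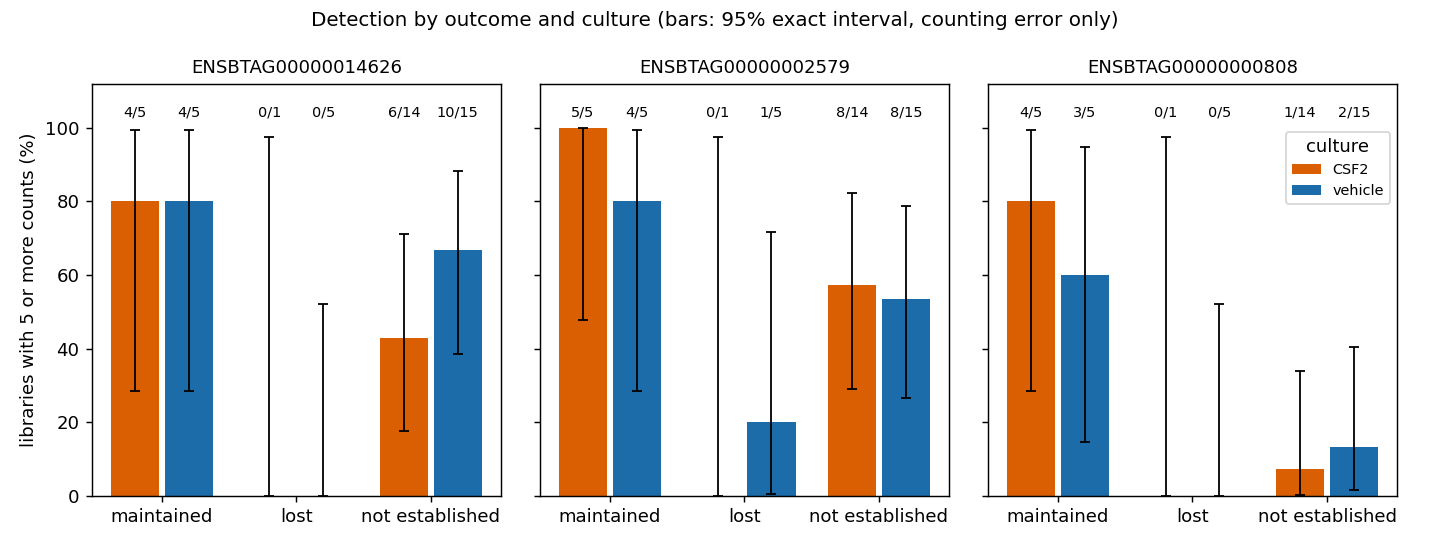
Share of libraries with 5 or more counts of each gene (vertical axis, %) by pregnancy outcome, with orange bars for CSF2, blue bars for vehicle, exact 95% intervals and the number detected over the number of libraries above each bar. Within each outcome the intervals of the cultures overlap for every gene, which is not a test of culture. The maintained and lost detections chose the genes, and their intervals do not allow for that choice. The lost group rests on 1 CSF2 and 5 vehicle embryos, and the interval of the 1 embryo, 0 to 97.5%, made overlap certain there.

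The embryos also differed in how many of the genes they held. Of the 9 deeper maintained libraries 6 held all 3 genes and 3 held 2 of them. Of the 5 deeper lost libraries 4 held none and 1 held 1. Detection in the maintained and lost libraries chose the genes, so these counts follow from the choice and are a description only. Of the 26 deeper not established libraries 5 held none, 9 held 1, 10 held 2 and 2 held all 3. ENSBTAG00000014626 and ENSBTAG00000002579 were each detected in 16 of these 26 libraries and together in 11, and whether they were read together more often than other genes was not tested.

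The libraries differed in how many genes they yielded, so detection was set beside that number. The deeper maintained libraries had 3950 ± 1599 detected genes (SD, n = 9), the deeper lost libraries 3290 ± 992 (SD, n = 5) and the deeper not established libraries 3347 ± 1016 (SD, n = 26). Lost replicate 2, with 4153 detected genes, held none of the 3, while maintained replicate 4, with 2054, held all of them and maintained replicate 10, with 2097, held 2. Lost replicates 1, 3, 4 and 6 had 3480, 3481, 1585 and 3753 detected genes. Maintained replicates 3 and 7, with 6137 and 5569, held all 3, and lost replicate 4 held none. Detection in these 2 groups chose the genes, so these values are a description, and the part of the number of genes read was not tested.

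Within the not established group the deeper libraries were divided at their median of 3529.5 detected genes. ENSBTAG00000014626 was detected in 10 of 13 libraries above the median and in 6 of 13 below, and ENSBTAG00000002579 in 11 of 13 and 5 of 13. These genes were read more often where more genes were read, as were 83.3% of the 6227 genes detected in 5 or more of these libraries. ENSBTAG00000000808 was detected in 1 of 13 above and 2 of 13 below. The part that the number of genes read plays in the outcome differences was not tested.

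**Figure D3:**
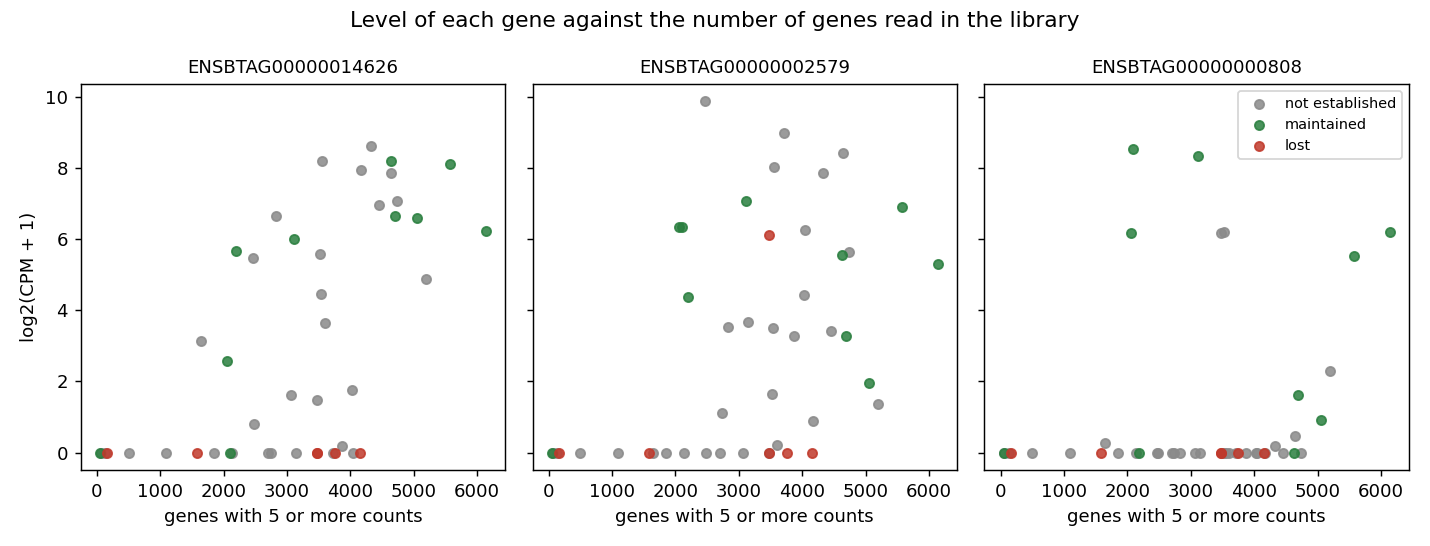
Level of each gene as log2(CPM + 1) (vertical axis) against how many genes reached 5 counts in the library (horizontal axis), with 1 point per embryo, green for maintained, red for lost and grey for not established. In the first 2 panels not established libraries with more detected genes more often hold the gene. Of the 5 deeper lost libraries 4 lie at 3480 to 4153 detected genes. In that range some not established libraries hold the gene and some do not, and no maintained library lies there.

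The effect of CSF2 was tested first in the 26 deeper not established libraries, 12 with CSF2 and 14 with vehicle, because neither these embryos nor this contrast chose the genes. ENSBTAG00000014626 was detected in 6 of 12 CSF2 and 10 of 14 vehicle embryos. Its level averaged 36.1 ± 72.6 CPM with CSF2 (SD, n = 12) and 89.7 ± 130 CPM with vehicle (SD, n = 14). Its log2 change with CSF2 was -1.31 with an approximate SE of 1.71 and an approximate 95% interval from -4.67 to 2.05 (adjusted p = 1, edgeR quasi-likelihood test with Benjamini-Hochberg adjustment). ENSBTAG00000002579 was detected in 8 of 12 CSF2 and 8 of 14 vehicle embryos. Its level averaged 120.7 ± 275 CPM with CSF2 (SD, n = 12) and 73.3 ± 151 CPM with vehicle (SD, n = 14). Its log2 change was 0.75 with an approximate SE of 1.62 and an approximate interval from -2.41 to 3.92 (adjusted p = 1, edgeR). Without not established replicate 7, which held 64.8% of the CSF2 embryos' summed CPM of this gene, the log2 change was -0.59.

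ENSBTAG00000000808 was detected in 1 of 12 CSF2 and 2 of 14 vehicle embryos and was left out by the filter on low counts, so 2 of the 3 genes were tested here. Neither passed the test, and the intervals leave room for changes of several fold either way. In this comparison edgeR called 0 of 2604 genes (0% of those tested), with 21 at an unadjusted p below 0.05, while limma voom called 1 of 2604. DESeq2 called 656 of the 7288 genes to which it gave an adjusted p, and Fisher's exact test on detection called 0 of 11386. None of these calls was one of the 3 genes, although DESeq2 gave no adjusted p for ENSBTAG00000000808.

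The same contrast was then fitted on all 40 deeper libraries with outcome as a term. The log2 change with CSF2 was -0.91 for ENSBTAG00000014626 (approximate SE 1.47, adjusted p = 0.829, edgeR), with an approximate 95% interval from -3.80 to 1.98. It was 0.32 for ENSBTAG00000002579 (approximate SE 1.46, adjusted p = 0.964, edgeR), with an interval from -2.53 to 3.17. For ENSBTAG00000000808 it was 0.50 (approximate SE 1.73, adjusted p = 0.944, edgeR), with an interval from -2.89 to 3.89. None of the 3 was called, where 20.6% of the 11930 genes tested were. That share depends on the filter, which kept most of the 12969 genes with any count in these libraries because the smallest group is 1 library. With a filter on culture alone, chosen after seeing the data, edgeR called 0 of 3279 genes, with 44 at an unadjusted p below 0.05. That filter left out ENSBTAG00000000808, so the value of this gene exists only under filters that let it pass on a few libraries, among them the maintained ones that chose it. With the first filter, limma voom called 0 of the 11930 genes.

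In maintained embryos the mean level of ENSBTAG00000000808 was 153.8 ± 180 CPM with CSF2 (SD, n = 5) and 23.5 ± 33.1 CPM with vehicle (SD, n = 5). In not established embryos the means were 5.12 ± 19.1 CPM with CSF2 (SD, n = 14) and 5.13 ± 18.7 CPM with vehicle (SD, n = 15). Maintained replicates 1 and 10 carry the higher CSF2 mean, and replicates 2 and 9 of that culture were at 0 and 2.08 CPM. The fitted change of this gene turned to -4.88 without not established replicate 12 (adjusted p = 0.181, edgeR), the 1 not established CSF2 library that holds it, and to 3.43 without not established replicate 17 (adjusted p = 0.212, edgeR), 1 of the 2 vehicle libraries that do. That of ENSBTAG00000002579 turned to -0.60 without not established replicate 7 (adjusted p = 0.922, edgeR).

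**Figure D4:**
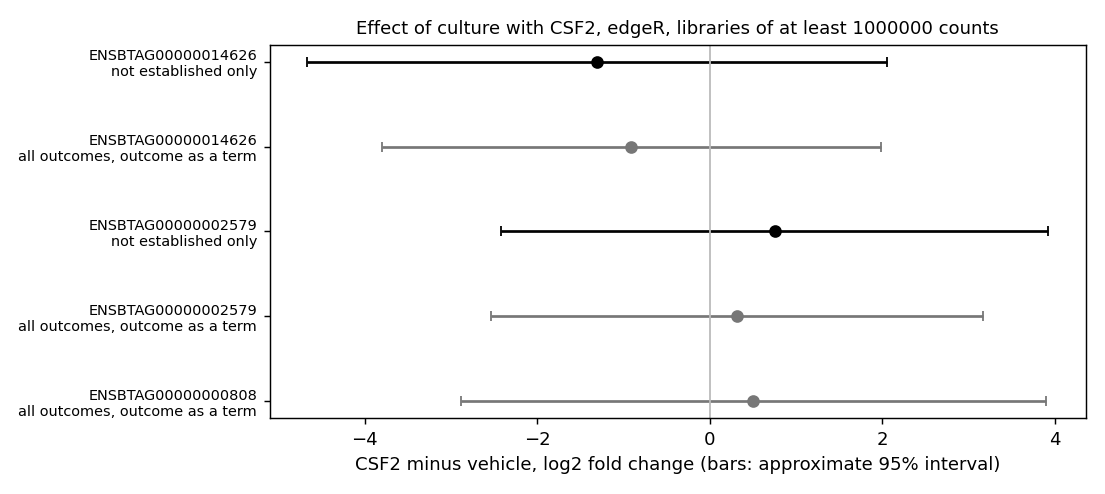
Log2 fold change of CSF2 minus vehicle (horizontal axis) for each gene in the not established libraries (black) and in all outcomes with outcome as a term (grey), with points for the edgeR estimate and bars for the approximate 95% interval. Every interval includes 0, and ENSBTAG00000000808 has no value in the not established libraries because it was filtered out.

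The genes most like each of the 3 were sought in the 26 deeper not established libraries by the share of libraries with both genes among those with either, over 6075 genes detected in 5 to 25 of them. For ENSBTAG00000014626 the nearest was ENSBTAG00000000599, which shared 16 of 19 libraries (84.2%, against a median of 38.9% over all candidates). For ENSBTAG00000002579 it was ENSBTAG00000011767, which shared 16 of 18 (88.9%, against a median of 41.2%). For ENSBTAG00000000808 it was ENSBTAG00000014807, which shared 3 of 5 (60.0%, against a median of 12.5%), a likeness that rests on 3 libraries. Each nearest gene was picked as the highest of the candidates by this share, so it lies above their median by the way it was picked. The first 2 of these like genes were each read in 4 of 6 lost libraries, and in 6 and 8 of 10 maintained libraries. The third was read in 0 of 6 lost and 2 of 10 maintained libraries. A share of 60.0% was the highest possible for ENSBTAG00000000808, since candidates needed 5 libraries and it has 3. ENSBTAG00000002209 and ENSBTAG00000001468 tied at that share and were read in 2 and 1 of the 6 lost libraries. The 3 genes were chosen for few lost detections and the like genes were not. The lost counts of the like genes thus give no contrast with them. Of all genes detected in 6 or more maintained libraries, 9.68% were detected in at most 1 lost library.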

How the data were processed

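Per the labels' protocols, RNA of each of 45 demi-blastocysts was isolated with the RNeasy Micro Kit and sequenced from NuGEN Ovation SoLo libraries. The values are raw read counts per Ensembl gene, deposited as 1 table without normalization. UMD3.1, bosTau8 and edgeR are named, without a role, in the submitters' processing notes. The aligner, counter and use of strand: not given in the sources used here. Columns were matched to samples by title, and no 2 columns were identical. A replicate is 1 embryo.

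The 3 genes, the lists and the tests were chosen with earlier results of these data known. Detection means 5 or more counts. The tests used libraries of at least 1000000 counts, filterByExpr (on culture in not established libraries, on outcome by culture in all), TMM, edgeR 4.0.16 quasi-likelihood with robust fitting in R 4.3.3, and Benjamini-Hochberg adjustment at 0.05. The SE is the log2 change over the root of its F statistic. Alternatives were DESeq2 1.42.0, limma 3.58.1 voom with quality weights, other scaling, filters and covariates, Fisher's exact test on detection, all libraries, and each library left out in turn. The genes named as most alike are the nearest of the 3 that the rule takes per gene, with ties broken by Spearman correlation. Marker lists and symbol families need symbols and were not run.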

Additional observations from a re-analysis of the deposited data

Results flagged for a closer look

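ENSBTAG00000002579 stood at 68.4 CPM in lost replicate 3 and at 0 in the other 5 lost libraries, so 1 library lies far from all others of its group. The same holds among the 5 vehicle embryos of the lost group. The library held 6304431 counts and 3481 detected genes, both within the range of the deeper lost libraries. The gene was chosen for detection in at most 1 lost library, so a single value above zeros follows from the choice, and both checks rest on the same library.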

How the results depend on the processing

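None of the 3 genes reached an adjusted p below 0.05 in any alternative that gave one. In not established libraries, ENSBTAG00000014626 kept a negative change with CSF2 and ENSBTAG00000002579 a positive one in every other fit that left no single library out; leaving out each library gave -0.59 (without replicate 7) to 1.63 for ENSBTAG00000002579. There the number of genes called, 0 of 2604, became 19 of 2352 with all libraries and 1 of 2604 with limma voom. It became 656 of the 7288 genes with an adjusted p in DESeq2, and 3126 of 12059 with no filter. Over all outcomes the 2455 calls of 11930 genes became 458 of the 6445 genes with an adjusted p in DESeq2. They became 0 of 11930 with limma voom and 0 of 3279 with the filter on culture added after seeing the data. With each library left out they were 195 (without lost replicate 1, where the filter kept 8098 genes) to 2598. Without not established replicate 2 the change of ENSBTAG00000014626 was -1.60 over all outcomes and -2.24 in not established libraries, and leaving out each library in turn gave up to -0.60 and -0.96. Over all outcomes it gave log2 changes from -0.60 to 0.92 for ENSBTAG00000002579 and from -4.88 (without not established replicate 12) to 3.43 (without replicate 17) for ENSBTAG00000000808. Apart from those given with their reason, the causes were not tested.

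No pairing of embryos by replicate number was seen, as 0 of 17 same-numbered pairs deviated together with a correlation over 0.1 (highest 0.0476). Low correlations between such sparse libraries cannot exclude that a number marks a shared batch. With the number as a replicate block, on libraries whose number another shares, edgeR called 0 genes, with 190 at an unadjusted p below 0.05, and the change of ENSBTAG00000002579 was -7.09.

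Detection of ENSBTAG00000002579 in maintained embryos, 90.0%, was 100% without the libraries under 1000000 counts and in CSF2 embryos, and 88.9% to 100% with each library left out. In lost embryos it was 0% in the 1 CSF2 embryo and 0% (without replicate 3) to 20.0% with each left out. Counting detection from 1 count, 10 counts or 1 CPM moved no share beyond its counting interval. Those intervals are wide and few libraries held low counts, so this check could hardly have come out otherwise. Groups of 6 and 10 embryos, with SDs near or above the means, limit every level given.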
